A study of Drosophila melanogaster with 22 samples.

Results

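The dpr, beat and kek genes encode families of cell surface proteins of the Drosophila nervous system, and their RNA levels are described here in sorted cells of the larval brain. The members were all genes whose symbol in the deposited tables is dpr followed by an optional number, begins with beat-, or is kek followed by a number, which gave 40 of 15339 named genes: 20 dpr, 14 beat and 6 kek genes. The study measured RNA by sequencing in small pools of GFP-labelled cells picked by a robotic sorter, and 22 libraries in 8 groups were used. Neurons and glia (2 libraries each) came from brains of wandering larvae. All neuroblasts, the neural stem cells of the larval brain, came from larvae at 50 h after hatching, in 6 groups of 3 libraries: mushroom body neuroblasts with a 2 h wait, mushroom body neuroblasts with 3 washes, mushroom body neuroblasts with neither label (called standard here), antennal lobe neuroblasts, type II neuroblasts and neuroblasts of all kinds, called pooled neuroblasts below. Mushroom body neuroblasts make the intrinsic neurons of the memory centre, antennal lobe neuroblasts make neurons of the olfactory system, and type II neuroblasts divide through intermediate progenitors. The genotypes, the drivers of GFP, and the nature of the wait and the washes were not stated in the labels used. Nothing in the labels says that replicates came from separate preparations, so p-values measure the spread between these libraries, which may be technical.

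Dpr proteins carry immunoglobulin domains and bind partners called Dpr-interacting proteins (DIPs), and Dpr and DIP pairs guide the matching of synaptic partners and the survival of some neurons. Beat (beaten path) proteins are immunoglobulin proteins that bind the Sidestep family, and the founding pair, Beat-Ia and Side, steers motor axons toward muscle. Kekkon (Kek) proteins join leucine-rich repeats to an immunoglobulin domain across the membrane, and Kek1 is known as an inhibitor of the epidermal growth factor (EGF) receptor that the receptor's own signalling induces.

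Libraries held 47 to 124 cells, 3150371 to 14282246 gene counts and 8958 to 11779 detected genes. On log2(CPM + 1) the correlation of the 2 neuron libraries was 0.872, that of the 2 glia libraries 0.841 and those among neuroblast replicates 0.953 to 0.977, so the values for neurons and glia rest on 2 libraries that differ more than any pair of neuroblast replicates. Marker genes were read beside the labels. The glial transcription factor repo was at 382 to 390 TPM in glia and at most 2.69 TPM in neurons and in the standard, antennal lobe, type II and pooled neuroblasts. The neuroblast gene dpn was at 0.202 to 0.882 TPM in neurons, 149 and 9.42 TPM in glia and 239 to 784 TPM in those neuroblasts. The gene ase, which type II neuroblasts lack, was at 2.81 to 5.06 TPM in type II neuroblasts and 134 to 188 TPM in pooled neuroblasts. Some markers crossed the labels. Of the glia markers, Gs2 averaged 208 TPM in neurons and nrv2 171 TPM in pooled neuroblasts. Glia had 707 TPM of Gs2 and 85.9 TPM of nrv2. TPM, the unit used for transcript abundance, is a level per gene length computed by the authors and is the scale of every level below unless CPM (counts scaled to library size) is named.

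The annotation and position of the members are described here. The families are known for their domains, so the domain terms follow from the choice by symbol and are no separate result. The authors' protein annotation listed an immunoglobulin term for 19 of 20 dpr, 13 of 14 beat and 5 of 6 kek genes. It listed a leucine-rich repeat term for 5 of 6 kek genes and for no dpr or beat gene. The genes without their family's term (dpr10, beat-IIIb and kek6) also had no protein family entry, so missing annotation and a missing domain cannot be told apart. The genes were long: their median span was 31.3 kb, against 2.01 kb over 13961 protein-coding genes of the files. The beat genes lay in clusters, with 10 of 14 within 100 kb of another member, against 4 of 20 dpr genes and no kek gene. On the dm3 build, dpr17 lies on chromosome arm 3R from 7923808 to 7936996 on the forward strand, 27.6 kb from dpr15, and kek1 lies on arm 2L from 12817000 to 12822787 on the reverse strand. The span of 12 of the 40 genes overlaps another annotated gene, among them dpr11 and beat-VII, and with the read strand not given, reads of overlapping genes and of closely similar family members could not be separated.

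All 40 members had a mean of 5 TPM or more in neurons, beside 48.4% of all 15339 genes. The members with a mean of 1 TPM or more were 21 in glia (52.5%, beside 60.9% of all genes). They were 19 in standard mushroom body (47.5%, beside 67.6%), 19 in antennal lobe (47.5%, beside 65.2%), 11 in type II (27.5%, beside 60.8%) and 14 in pooled neuroblasts (35%, beside 60.4%). The members with no count at all were 7 in glia (17.5%, beside 28% of all genes). They were 6 in standard mushroom body (15%, beside 18.7%), 9 in antennal lobe (22.5%, beside 19.9%), 8 in type II (20%, beside 24%) and 12 in pooled neuroblasts (30%, beside 22.4%). The 20 dpr genes together came to 1760 and 3260.0 TPM in the 2 neuron libraries and 62.2 and 52.0 TPM in glia. In neuroblasts the same sum averaged 83.3 ± 8.44 TPM in standard mushroom body, 85.2 ± 23.6 TPM in antennal lobe, 38.4 ± 14.7 TPM in type II and 24.6 ± 7.27 TPM in pooled neuroblasts (SD, n = 3 each). The 14 beat genes summed to 791 and 1094 TPM in neurons and 57.2 and 107 TPM in glia, and no neuroblast library held more than 5.83 TPM of them together. The 6 kek genes summed to 496 and 1214 TPM in neurons and 184 and 238 TPM in glia, and their means in neuroblasts were 159 ± 10.8 TPM in antennal lobe, 106 ± 13.1 TPM in standard mushroom body, 49.9 ± 3.04 TPM in type II and 55.4 ± 15.3 TPM in pooled neuroblasts (SD, n = 3 each). As a share of the neuronal mean, the beat sum in standard mushroom body, antennal lobe, type II and pooled neuroblasts was at most 0.502%, the dpr sum at most 3.4%, and the kek sum between 5.83% and 18.6%. In glia these shares were 8.72% for beat, 2.27% for dpr and 24.6% for kek genes.

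**Figure D1:**
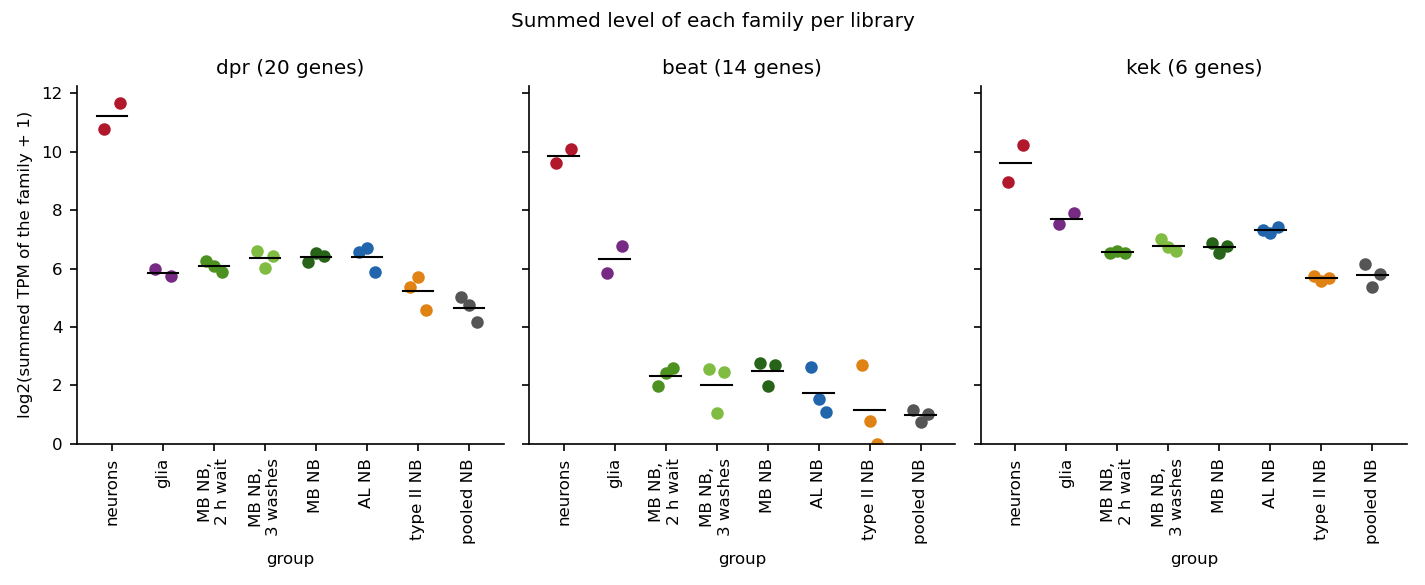
Summed level of each family in each library, as log2(summed TPM + 1), for 20 dpr, 14 beat and 6 kek genes. Points are libraries, short lines are group means, MB is mushroom body, AL is antennal lobe and NB is neuroblasts; all 3 families are highest in neurons, and the beat sum reaches at most 5.83 TPM in a neuroblast library.

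In neurons the dpr gene with the highest mean was dpr9 at 197 and 432 TPM and the lowest was dpr2 at 46.8 and 3.71 TPM, the only member whose 2 neuron libraries differed by more than 10 times. The beat genes averaged between 25.9 TPM for beat-Vc and 145 TPM for beat-VII, and the kek genes between 26.9 TPM for kek3 and 349 TPM for kek1. Of the 40 members, 30 (75%) were higher in neuron library 2 than in library 1, beside 65.7% of 6646 genes with 50 or more counts in the pair. The genes CR41602 and CR40677 together took 31.9% of gene counts in neuron library 1 and 11.8% in library 2. Reads assigned to no feature were 15.6% and 23.8% of counts. The part of these differences in the neuron TPM values was not tested.

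**Figure D2:**
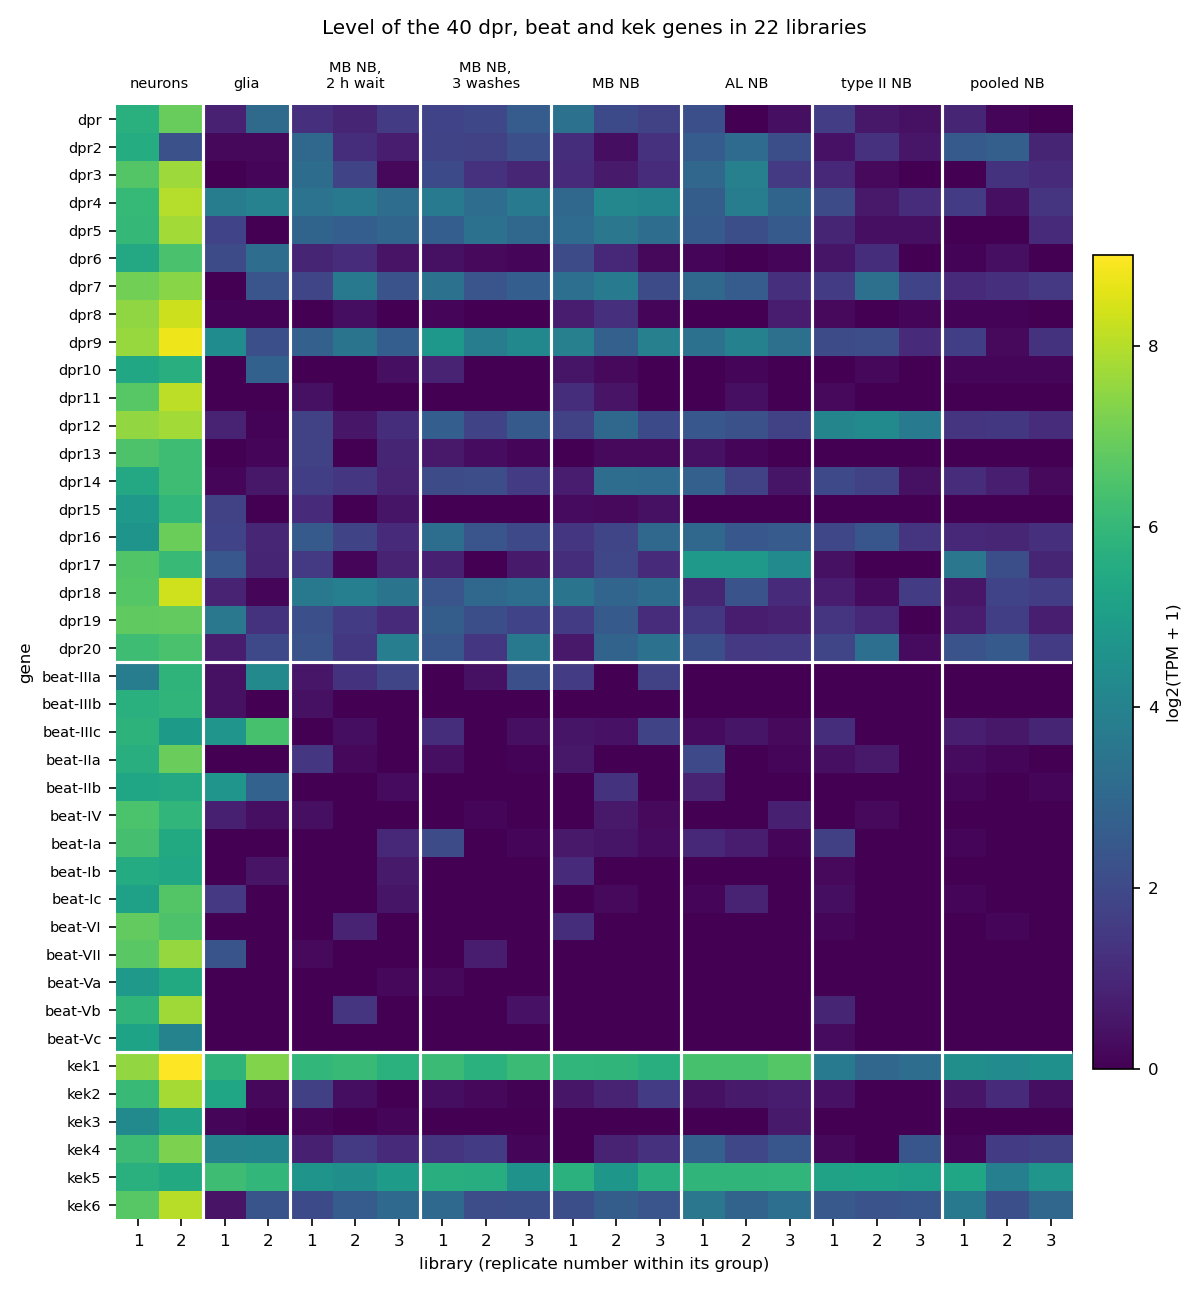
Level of each of the 40 genes (rows, grouped as dpr, beat and kek) in each of the 22 libraries (columns, numbered by replicate within each group), as log2(TPM + 1). The neuron columns are bright for every gene, kek1 and kek5 are visible in every library, and dpr17 stands out in antennal lobe and dpr12 in type II neuroblasts.

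Set against pooled neuroblasts, 38 of 40 members were higher in neurons and none was lower by edgeR's quasi-likelihood test at a Benjamini-Hochberg adjusted p below 0.05. Over all 9855 genes tested, 14.5% were higher, and 24.7% were called in either direction. All 40 passed the filter on low counts, but the 12 with no count in pooled neuroblasts could pass only through neurons or glia. The same holds for members with few counts there, among them all 14 beat genes, which together averaged 0.784 CPM in pooled neuroblasts. The share of members called higher in neurons is therefore not independent of the filter. The median change of the members was 8.54 log2 units (7.93 with the genes without counts in pooled neuroblasts set at the bound given by 3 counts), against -0.18 for all genes tested. By family, 19 of 20 dpr, 14 of 14 beat and 5 of 6 kek genes were higher.

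Among dpr genes, dpr11, whose protein binds DIP-gamma, was at 99.2 and 274 TPM in neurons and had no count in pooled neuroblasts, which makes it at least 3232-fold higher (edgeR adjusted p = 0.00032). dpr13 was at 88.3 and 72.2 TPM in neurons, again without a count in pooled neuroblasts, and was at least 878-fold higher (edgeR adjusted p = 0.000868). dpr8 was at 181 and 321 TPM in neurons and at 0.0589, 0.0582 and 0 TPM in pooled neuroblasts. Its count ratio was 6763, with a 95% interval of 1871 to 55859 that covers counting error only (edgeR adjusted p = 1.31e-05). No neuron value of these genes came near a pooled neuroblast value, a description of genes chosen by their calls that adds no evidence. dpr17 differed less, because pooled neuroblasts hold some: it was at 93.4 and 67.7 TPM in neurons and at 11, 3.50 and 0.913 TPM in pooled neuroblasts, a change of 4.07 ± 1.09 log2 units (SE; edgeR adjusted p = 0.0256). That call was lost on leaving out pooled neuroblast replicate 2 (adjusted p = 0.0912) or 3 (0.0579) or neuron replicate 1 (0.0846) or 2 (0.0547), and under scaling to the spike-in RNA (0.102).

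Among beat genes, beat-VII was at 102 and 189 TPM in neurons and without a count in pooled neuroblasts, at least 1458-fold higher (edgeR adjusted p = 0.00533). beat-IV was at 85.8 and 59.5 TPM in neurons and also without a count in pooled neuroblasts, at least 809-fold higher (edgeR adjusted p = 0.000828). beat-Vb, of the group of Beat proteins that bind Side-VI, was at 58.5 and 209 TPM in neurons with no count in pooled neuroblasts, at least 958-fold higher (edgeR adjusted p = 0.00234). Its neighbours beat-Va and beat-Vc, 63.7 kb apart from each other, were at 27.7 and 43.5 TPM and at 36.7 and 15.1 TPM in neurons, and they too had no count in pooled neuroblasts. beat-Ia, the founding member, was at 80.3 and 43.7 TPM in neurons and at 0.104, 0 and 0 TPM in pooled neuroblasts.

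Among kek genes, kek1 was at 187 and 511 TPM in neurons and at 20.6, 19.4 and 21.7 TPM in pooled neuroblasts, a rise of 4.08 ± 0.47 log2 units (SE; edgeR adjusted p = 0.00042). Its lowest neuron library was above every pooled neuroblast library, which adds no evidence to the call. kek6, whose protein acts as a neurotrophin receptor at the neuromuscular junction, was at 99.9 and 258 TPM in neurons and 11.5, 3.63 and 6.77 TPM in pooled neuroblasts (4.60 ± 0.88 log2 units, SE; edgeR adjusted p = 0.0057). The 2 members that were not called were dpr2, at 26.6 ± 33.4 CPM in neurons (SD, n = 2) and 3.37 ± 2.22 CPM in pooled neuroblasts (SD, n = 3), and kek5, at 51.1 and 42.9 TPM in neurons and 37.8, 13.7 and 24.8 TPM in pooled neuroblasts (edgeR adjusted p = 0.144 and 0.183). kek5 is known as a modulator of bone morphogenetic protein signalling. Neurons and glia came from older larvae than the neuroblasts, so cell type and larval age cannot be told apart in these comparisons. In libraries of pooled cells, fewer cells of a type and less RNA per cell cannot be told apart either.

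**Figure D3:**
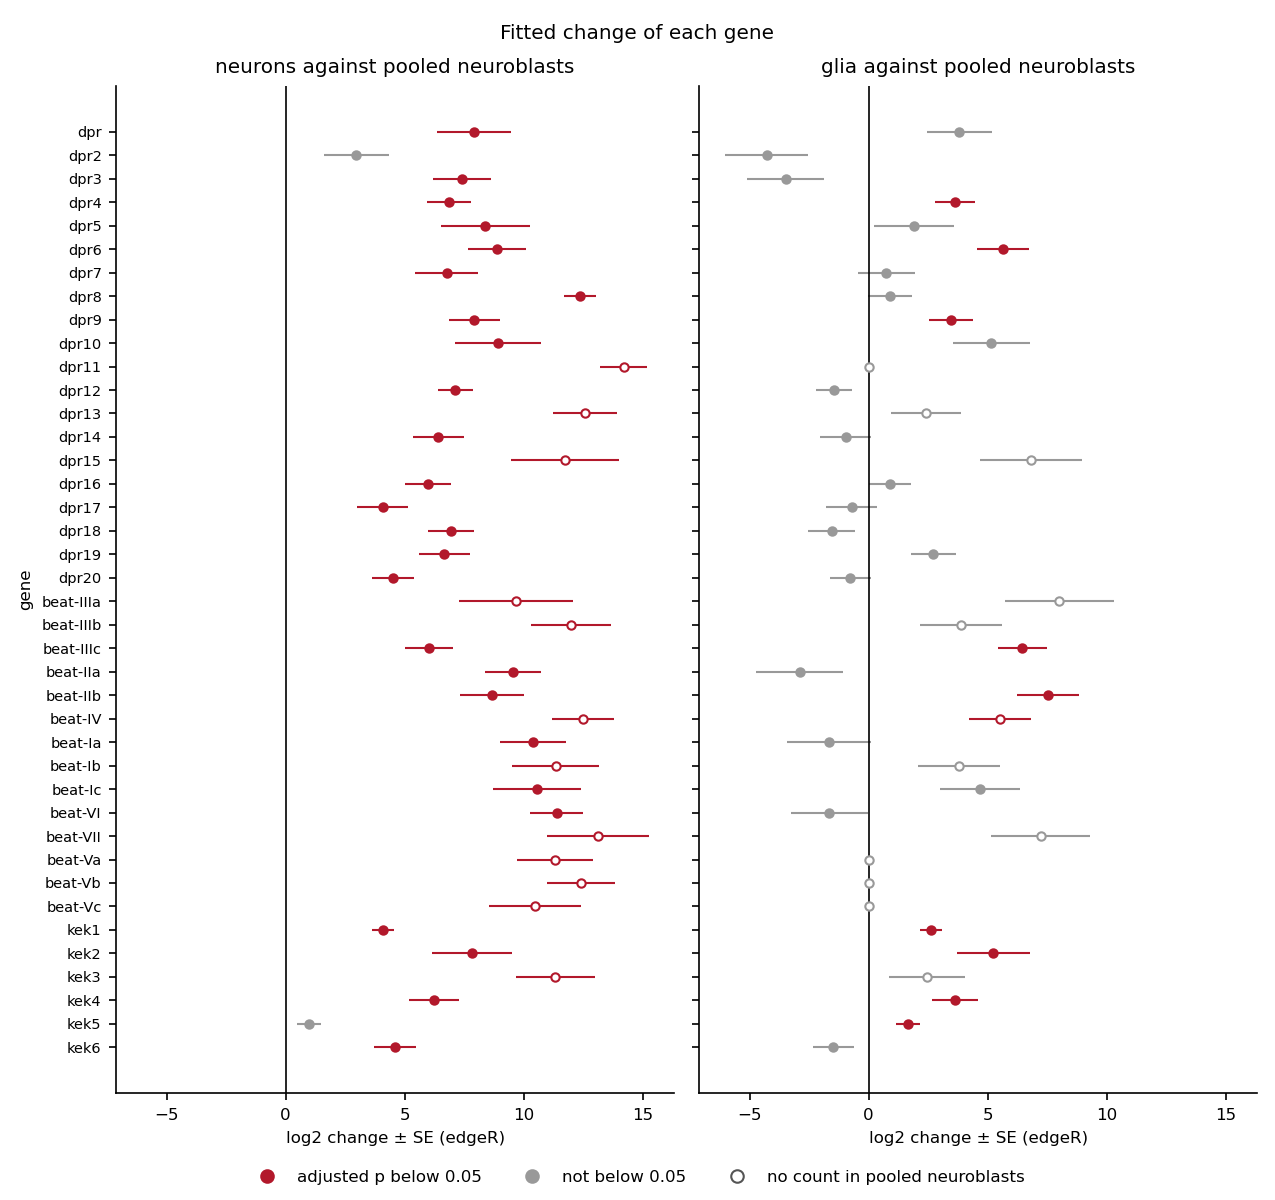
Fitted log2 change ± SE (x axis) of each of the 40 genes (rows) in neurons against pooled neuroblasts (left) and in glia against pooled neuroblasts (right). Red points have an edgeR adjusted p below 0.05 and open points have no count in pooled neuroblasts, where the fitted value depends on a prior count and is no bound; all 40 points lie right of 0 for neurons and 25 for glia.

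In glia a smaller set was higher than in pooled neuroblasts: 10 of 40 members rose and none fell, where 13.6% of all genes were higher and 20.6% were called in either direction. The 10 were dpr4, dpr6 and dpr9, beat-IIb, beat-IIIc and beat-IV, and kek1, kek2, kek4 and kek5, with beat-IV under 5 CPM in glia. When libraries were scaled to spike-in RNA per cell, 2 members were higher and 11 lower, and the median change of all genes was then -3.45 log2 units. The count was 5 without pooled neuroblast replicate 1 or 2 and 4 without replicate 3.

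kek1 was the highest member in glia at 57.0 and 156 TPM, against 20.6, 19.4 and 21.7 TPM in pooled neuroblasts, a rise of 2.62 ± 0.45 log2 units (SE; edgeR adjusted p = 0.0051) that turned to -0.83 under spike-in scaling (adjusted p = 0.193). kek5 was at 73.0 and 61.5 TPM in glia, above its 37.8, 13.7 and 24.8 TPM in pooled neuroblasts (1.65 ± 0.50 log2 units, SE; edgeR adjusted p = 0.0478). kek4 was nearly the same in both glia libraries, 15.2 and 15.5 TPM, against 0.108, 2.04 and 2.28 TPM in pooled neuroblasts (edgeR adjusted p = 0.03). The kek4 call was lost without any 1 of the pooled neuroblast or glia libraries, at adjusted p from 0.0508 to 0.0857, and with spike-in scaling (0.926). kek2 rested on a single library, with 37.9 TPM (531 counts) in glia replicate 1 and 0.133 TPM (2 counts) in replicate 2, and without replicate 1 its change was -1.96 log2 units (edgeR adjusted p = 0.291). The kek2 call (5.24 ± 1.55 log2 units, SE; edgeR adjusted p = 0.0436) was also lost without any 1 pooled neuroblast or neuron library, at adjusted p from 0.0615 to 0.134. It was lost too without a filter (adjusted p = 0.154), with spike-in scaling (0.379) and with limma (0.323).

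Of the 3 beat genes called in glia, beat-IIIc was at 24.9 and 82.7 TPM in glia, against 0.686, 0.508 and 0.903 TPM in pooled neuroblasts (6.45 ± 1.02 log2 units, SE; edgeR adjusted p = 0.00321), and it made up 65.5% of the summed beat level in glia. beat-IIb, whose protein binds Side-IV, was at 25.0 and 6.06 TPM in glia and 0.122, 0 and 0.129 TPM in pooled neuroblasts. Its count ratio was 220 (95% interval 60.2 to 1829, counting error only; edgeR adjusted p = 0.00507). beat-IIIa, which was not called, was at 0.316 and 17.7 TPM in glia and had no count in pooled neuroblasts. Among dpr genes, dpr4 was at 12.6 and 14.9 TPM in glia and 2.00, 0.283 and 1.61 TPM in pooled neuroblasts (3.64 ± 0.83 log2 units, SE; edgeR adjusted p = 0.0171, 0.0585 without pooled neuroblast replicate 3 and 0.914 with spike-in scaling). dpr6 was at 3.28 and 8.38 TPM in glia and 0.0752, 0.297 and 0 TPM in pooled neuroblasts (5.67 ± 1.10 log2 units, SE; edgeR adjusted p = 0.00865, 0.0508 without pooled neuroblast replicate 1 and 0.129 with spike-in scaling). Both glia libraries lay above all pooled neuroblast libraries for each of these 4 genes, which were chosen by their calls, so the separation adds no evidence.

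Markers of other cell types were also present in glia. Over the whole lists, 6 neuroblast markers summed to 363 and 81.1 TPM in glia and 1944 to 2262 TPM in pooled neuroblasts. The 9 neuron markers summed to 95.5 and 102 TPM in glia and 42.6 to 60.8 TPM in pooled neuroblasts, and the 7 blood cell markers to 340 and 226 TPM in glia and 42.2 to 67.9 TPM in pooled neuroblasts. Of the blood cell markers, crq alone averaged 151 TPM in glia and 55.6 TPM in pooled neuroblasts. The median of the 7 blood cell marker means was 10.1 TPM in glia. The 5 fat body markers summed to 458 and 1441 TPM in glia and 8.45 to 9.25 TPM in pooled neuroblasts. That glial sum rested on Rfabg, at a mean of 834 TPM, while the median of the 5 marker means was 0.763 TPM and Lsp2 had no count. Whether cells of these types were present in the glia libraries, and their part in the levels of members there, was not tested. Of 19 members with 20 or more counts over both glia libraries, 6 differed more than 10-fold between them (dpr10, dpr15, beat-IIIa, beat-VII, kek2 and kek6).

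Set directly against glia, 27 members were higher in neurons and none was lower, with 9.37% of all genes higher and 20.1% called in either direction. This was 15 of 20 dpr, 10 of 14 beat and 2 of 6 kek genes. At least the 7 members with no count in glia (1 dpr and 6 beat genes) could pass the filter on low counts only through neurons or pooled neuroblasts. dpr11 had no count in glia and was at least 1564-fold higher in neurons (edgeR adjusted p = 0.0013), and dpr8 was at 181 and 321 TPM in neurons and 0.0713 and 0.0664 TPM in glia, a count ratio of 3272 (95% interval 905 to 27028, counting error only; edgeR adjusted p = 7.1e-05). beat-VI (112 and 89.4 TPM in neurons), beat-IIa (48.8 and 124 TPM), beat-Vb and beat-Ia had no count in glia, and were at least 580-fold, 461-fold, 463-fold and 274-fold higher in neurons (edgeR adjusted p = 0.00132, 0.00306, 0.0078 and 0.00491). dpr17 was at 93.4 and 67.7 TPM in neurons and 4.37 and 0.896 TPM in glia, higher in neurons by 4.78 ± 1.33 log2 units (SE; edgeR adjusted p = 0.0361), a call that was lost without either neuron library, either glia library or pooled neuroblast replicate 2, at adjusted p from 0.053 to 0.117.

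The 13 members without a call between neurons and glia included 4 of the kek genes. kek1 was 1.46 ± 0.50 log2 units higher in neurons (SE; edgeR adjusted p = 0.0701), and kek5 and beat-IIIc had changes below 0, at -0.67 ± 0.56 and -0.43 ± 0.95 log2 units (SE; edgeR adjusted p = 0.418 and 0.778). These p-values do not show that the levels are alike. Without neuron replicate 2 the count of members called between neurons and glia was 16, and under spike-in scaling it was 34, all higher in neurons.

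The partner families were read from lists drawn up by gene name. The list called DIP genes here holds the genes named DIP and also cDIP, which lacks that naming pattern. Of 11 DIP genes in the files (of 12 looked for), 8 were higher in neurons than in pooled neuroblasts and none lower. Of the 8 sidestep genes, 8 were higher, beside 14.5% of all genes. At least the 5 DIP and 2 sidestep genes with no count in pooled neuroblasts could pass the filter on low counts only through neurons or glia. DIP-beta, DIP-theta and DIP-delta had no count in pooled neuroblasts and stood at 22.9 and 113 TPM, 17.1 and 107 TPM, and 42.0 and 24.4 TPM in neurons, at least 738-fold, 692-fold and 447-fold higher (edgeR adjusted p = 0.00686, 0.00527 and 0.00418). DIP-gamma, the partner of Dpr11, was at 73.0 and 54.8 TPM in neurons and at 0, 1.22 and 0 TPM in pooled neuroblasts (edgeR adjusted p = 0.018). DIP-alpha, the partner of Dpr6 and Dpr10, was one of the 3 without a call, at 19.1 and 33.8 TPM in neurons and 13.3, 4.87 and 23.6 TPM in pooled neuroblasts. It had counts in every library, at 4.87 TPM or more in every neuroblast library, where dpr6 reached at most 3.23 TPM and dpr10 at most 0.838 TPM.

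Among the Sidestep genes, side-VIII (100 and 128 TPM in neurons) and side-VI (48.0 and 109 TPM) had no count in pooled neuroblasts and were at least 2235-fold and 1559-fold higher in neurons (edgeR adjusted p = 7.68e-05 and 0.000759). side, the gene of the Beat-Ia partner, was at 79.9 and 61.2 TPM in neurons and 0.511, 0.151 and 0 TPM in pooled neuroblasts (edgeR adjusted p = 0.00158). In glia 3 sidestep genes were higher than in pooled neuroblasts and 1, side-III, was lower, and 2 DIP genes were higher and none lower. Of all genes, 13.6% were higher and 7.0% lower there. side-IV was the clearest, at 73.6 and 61.3 TPM in glia and 0.229, 0.226 and 0.301 TPM in pooled neuroblasts (8.28 ± 0.54 log2 units, SE; edgeR adjusted p = 3.94e-05). Of the Beat-II genes, glia held beat-IIb and no count of beat-IIa. Against glia, neurons had 6 DIP and 5 sidestep genes higher and none lower, beside 9.37% of all genes higher and 10.8% lower. At least the 5 DIP genes and 1 sidestep gene with no count in glia could pass the filter only through neurons or pooled neuroblasts.

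**Figure D4:**
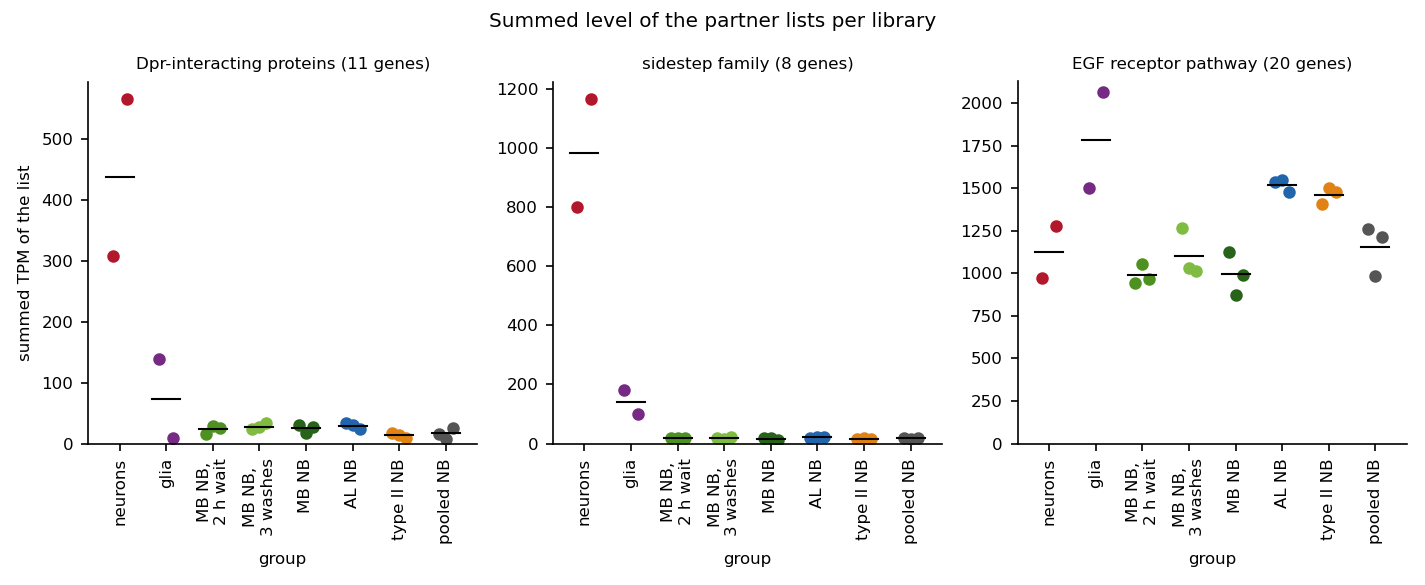
Summed TPM (y axis, linear) of 11 DIP genes, 8 sidestep genes and 20 genes of the EGF receptor pathway in each library, by group. Points are libraries and short lines are group means, with MB, AL and NB for mushroom body, antennal lobe and neuroblasts; DIP and sidestep sums are highest in neurons, and 1 glia library carries 139 TPM of DIP genes, of which 113 TPM is cDIP.

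Of 20 listed genes of the EGF receptor pathway, in which Kek1 acts, 19 were tested. None was higher and 3 were lower in neurons than in pooled neuroblasts, namely Egfr, pnt and aos. Over all genes tested, 14.5% were higher and 10.2% lower in that comparison. Egfr had no count in neurons and was at 31.1, 18.6 and 30.1 TPM in pooled neuroblasts, at least 174-fold lower (edgeR adjusted p = 0.000474). The transcription factor gene pnt was at 0.684 and 3.43 TPM in neurons and 30.9, 50.4 and 49.7 TPM in pooled neuroblasts (edgeR adjusted p = 0.00169). In glia 5 pathway genes were higher and none lower than in pooled neuroblasts, among them the protease genes rho (210 and 181 TPM in glia, 8.70, 2.51 and 9.67 TPM in pooled neuroblasts) and stet and the ligand gene grk (edgeR adjusted p = 0.00171, 0.0341 and 0.00888). Of all genes, 13.6% were higher and 7.0% lower in glia than in pooled neuroblasts. Against glia, 7 pathway genes were lower and none higher in neurons, beside 10.8% and 9.37% of all genes.

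Among the neuroblast lineages, 20 of the 40 members passed the filter on low counts: 15 dpr and 5 kek genes and no beat gene. The 14 beat genes, dpr8, dpr10, dpr11, dpr13, dpr15 and kek3 were too low to test in these 12 libraries. Of the 20 tested, 10 were called in at least 1 of the 6 comparisons between the groups: dpr3, dpr4, dpr5, dpr9, dpr12, dpr16, dpr17, dpr18, kek1 and kek5. That is 50% of those tested, beside 33.8% of all 9249 genes called in at least 1 of the same comparisons. Members with few counts in some groups, such as dpr5 in type II and pooled neuroblasts, could pass the filter only through groups where they were higher. The share called is therefore not independent of the filter. The pooled neuroblasts are shared by 3 of these comparisons, and their calls are not independent.

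Of the tested members, none was higher and 2 were lower in mushroom body than in antennal lobe neuroblasts, where 5.88% of all 9249 genes were higher and 5.96% lower (11.8% in either direction). Mushroom body had 6 members higher and 1 lower than type II, beside 5.63% and 4.72% of all genes (10.4% in either direction). Antennal lobe had 5 higher and 1 lower than type II, beside 6.08% and 5.34% (11.4%). Against pooled neuroblasts, 5 members were higher and none lower in mushroom body (8.92% and 5.46% of all genes, 14.4% in either direction). In antennal lobe 7 were higher and none lower (10.0% and 7.02%, 17.0%), and in type II 1 was higher and 2 lower (3.72% and 2.21%, 5.92%). Read against these shares, 2 of 20 tested members between mushroom body and antennal lobe is near the background. Single libraries moved these counts. Mushroom body against antennal lobe had 1 call without antennal lobe replicate 3 or any 1 mushroom body library. Mushroom body against type II had 2 without mushroom body replicate 1 or 3 or type II replicate 2, and 4 without mushroom body replicate 2 or type II replicate 3. Antennal lobe against type II had 3 without antennal lobe replicate 2 or type II replicate 2 or 3, and antennal lobe against pooled neuroblasts had 4 without pooled replicate 2 or antennal lobe replicate 1 or 2. Scaling to spike-in RNA changed the splits, to 2 higher and 3 lower for mushroom body against type II, 2 and 1 for antennal lobe against type II, 3 and 1 for mushroom body against pooled, and 2 and 1 for type II against pooled neuroblasts, with the median of all genes at -1.44, -1.06, -0.68 and 0.78 log2 units.

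**Figure D5:**
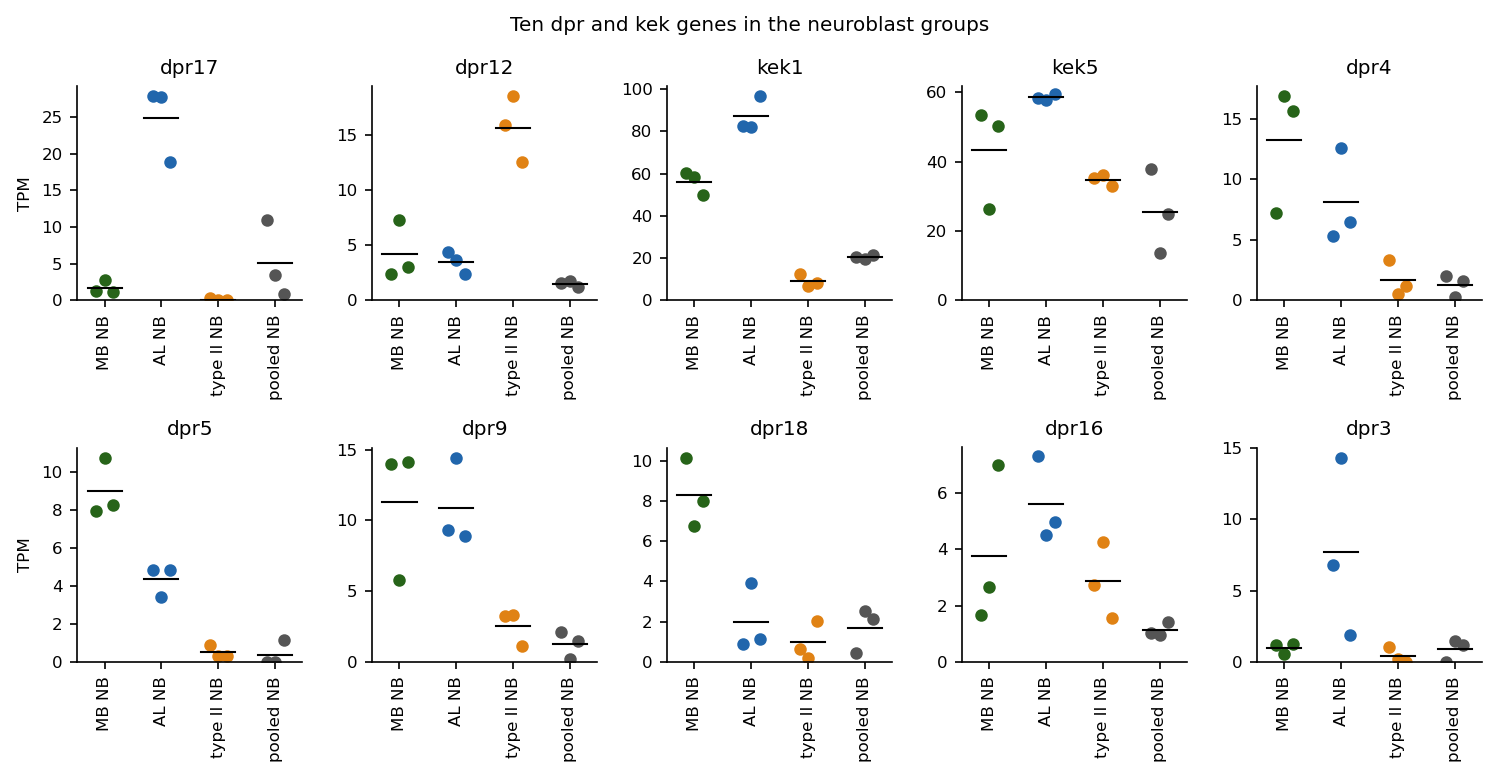
TPM (y axis, linear) of the 10 genes called in at least 1 lineage comparison, in standard mushroom body (MB), antennal lobe (AL), type II and pooled neuroblasts (NB). Points are libraries and short lines are group means; dpr17 and kek1 are highest in AL, dpr12 is highest in type II, and dpr5 and dpr18 are highest in MB.

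The antennal lobe neuroblasts were marked by dpr17. It was at 27.8, 27.7 and 18.9 TPM there, at 1.28, 2.76 and 1.09 TPM in standard mushroom body, 0.313, 0 and 0 TPM in type II, and 11, 3.50 and 0.913 TPM in pooled neuroblasts. Every antennal lobe library was above every library of the other 3 groups, which adds no evidence to the calls of this gene. The antennal lobe mean was 30.8% of the neuronal mean. dpr17 was 2.30 ± 0.65 log2 units higher in antennal lobe than in pooled neuroblasts (SE; edgeR adjusted p = 0.022). The call was lost without pooled neuroblast replicate 2 (adjusted p = 0.085) or antennal lobe replicate 1 (0.0632) or 2 (0.061). For dpr17 it was also lost in 1 fit of all 22 libraries (adjusted p = 0.161). Against type II the dpr17 count ratio of antennal lobe was 199 (95% interval 67.8 to 965, counting error only; edgeR adjusted p = 4.45e-05), and mushroom body was 3.84 ± 0.73 log2 units below antennal lobe (SE; edgeR adjusted p = 0.00162). Type II neuroblasts were 40.5-fold below pooled neuroblasts by count ratio (95% interval 13.7 to 198, counting error only; edgeR adjusted p = 0.0026), a call lost with limma (0.0673). dpr17 was also 3.69 log2 units higher in mushroom body than in type II neuroblasts (edgeR adjusted p = 0.0344). That call was lost without any 1 mushroom body library or type II replicate 2 or 3 (adjusted p from 0.0688 to 0.149). It was also lost with limma (0.207) and in 1 fit of all 22 libraries (0.129). dpr15, the neighbouring gene, had no count in the antennal lobe libraries.

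kek1 was called in all 6 lineage comparisons, so the separation of libraries described here adds no evidence to those calls. The libraries of all 4 groups stood apart in kek1. It was at 60.2, 58.3 and 50.0 TPM in standard mushroom body, 82.6, 81.8 and 96.9 TPM in antennal lobe, 12.3, 6.81 and 8.35 TPM in type II, and 20.6, 19.4 and 21.7 TPM in pooled neuroblasts, with no overlap between any 2 groups. Antennal lobe neuroblasts were 3.23 ± 0.21 log2 units above type II (SE; edgeR adjusted p = 3.96e-11) and 2.14 ± 0.19 above pooled (SE; edgeR adjusted p = 6.75e-08). Mushroom body neuroblasts were 2.58 ± 0.20 log2 units above type II (SE; edgeR adjusted p = 1.75e-09) and 1.50 ± 0.19 above pooled (SE; edgeR adjusted p = 6.33e-06). Type II neuroblasts were 1.09 ± 0.20 log2 units below pooled (SE; edgeR adjusted p = 0.000855). The step between mushroom body and antennal lobe was the smallest, -0.64 ± 0.19 log2 units (SE; edgeR adjusted p = 0.0251), and was lost without antennal lobe replicate 3 (adjusted p = 0.106) or any 1 mushroom body library (0.0608 to 0.0941). With spike-in scaling the calls for mushroom body against pooled (adjusted p = 0.162), type II against pooled (0.838) and mushroom body against antennal lobe (0.182) were lost. In 1 fit of all 22 libraries the lost calls were those for type II against pooled (0.0769) and mushroom body against antennal lobe (0.271). With limma the call for mushroom body against antennal lobe was lost (0.106).

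As dpr12 was named for its calls, the separation of libraries described next adds no evidence to them. dpr12, whose protein binds DIP-delta, marked the type II neuroblasts. It was at 15.9, 18.6 and 12.6 TPM there, against 1.56, 1.72 and 1.18 TPM in pooled neuroblasts, a rise of 3.46 ± 0.50 log2 units (SE; edgeR adjusted p = 5.21e-05), and the lowest type II library was above every library of the other 3 groups. In mushroom body it was at 2.36, 7.28 and 3.05 TPM and in antennal lobe at 4.43, 3.71 and 2.37 TPM, which were 1.90 ± 0.47 and 2.19 ± 0.47 log2 units below type II (SE; edgeR adjusted p = 0.00914 and 0.00276). The mushroom body difference was lost without mushroom body replicate 1 or 3 or type II replicate 2, at adjusted p from 0.0507 to 0.0609. It was also lost in 1 fit of all 22 libraries (adjusted p = 0.0623). dpr12 held 40.9% of the summed dpr level of type II neuroblasts. DIP-delta itself had no count in type II neuroblasts and stood at 42.0 and 24.4 TPM in neurons. dpr12 was also 1.56 ± 0.48 log2 units above pooled neuroblasts in mushroom body (SE; edgeR adjusted p = 0.0309). That call was lost without mushroom body replicate 2, its highest library (adjusted p = 0.281), any 1 pooled library or type II replicate 1 (up to 0.108). It was also lost with spike-in scaling (adjusted p = 0.339), with limma (0.189) and in 1 fit of all 22 libraries (0.14).

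dpr4, dpr5 and dpr9 were higher in the mushroom body and antennal lobe groups than in pooled neuroblasts. dpr5 was at 7.94, 10.7 and 8.28 TPM in mushroom body, 4.86, 3.43 and 4.84 TPM in antennal lobe, 0.907, 0.293 and 0.287 TPM in type II, and 0, 0 and 1.16 TPM in pooled neuroblasts. dpr4, 27.5 kb from dpr5, was at 7.24, 16.9 and 15.6 TPM in mushroom body, 5.36, 12.6 and 6.47 TPM in antennal lobe, 3.31, 0.534 and 1.22 TPM in type II, and 2.00, 0.283 and 1.61 TPM in pooled neuroblasts. dpr9 was at 14, 5.76 and 14.1 TPM in mushroom body, 9.33, 14.4 and 8.91 TPM in antennal lobe, 3.23, 3.34 and 1.15 TPM in type II, and 2.14, 0.177 and 1.51 TPM in pooled neuroblasts. In all 3 genes each mushroom body and antennal lobe library was above each type II and pooled library, a description of genes chosen by their calls. Against pooled neuroblasts, mushroom body was higher by 4.52 ± 1.19 for dpr5, 3.39 ± 0.71 for dpr4 and 3.16 ± 0.67 log2 units for dpr9 (SE; edgeR adjusted p = 0.0119, 0.00208 and 0.00208). Antennal lobe was higher than pooled by 3.11 ± 0.66 for dpr9 and 2.67 ± 0.70 log2 units for dpr4 (SE; edgeR adjusted p = 0.00223 and 0.0105, the second 0.0533 without antennal lobe replicate 2). Against type II, mushroom body was higher by 4.05 ± 1.20 for dpr5, 2.92 ± 0.71 for dpr4 and 2.1 ± 0.64 log2 units for dpr9 (SE; edgeR adjusted p = 0.0299, 0.00842 and 0.036). The dpr5 call against type II was lost without any 1 mushroom body library or type II replicate 2 or 3 (adjusted p up to 0.105), and the dpr9 call without mushroom body replicate 1 or 3 or any 1 type II library (up to 0.146). Antennal lobe was above type II by 2.20 ± 0.70 for dpr4 and 2.04 ± 0.64 log2 units for dpr9 (SE; edgeR adjusted p = 0.0405 and 0.0389). The dpr4 call was lost without antennal lobe replicate 2, mushroom body replicate 2 or 3 or type II replicate 2 or 3 (adjusted p up to 0.152), and the dpr9 call without antennal lobe replicate 1 or 2, mushroom body replicate 1 or any 1 type II library (up to 0.164). With spike-in scaling the calls of mushroom body against type II were lost for dpr5 (adjusted p = 0.118), dpr4 (0.252) and dpr9 (0.5). The calls lost were also those of antennal lobe against type II for dpr4 (0.438) and dpr9 (0.344) and against pooled for dpr4 (0.0661). Antennal lobe against type II was also lost with limma and in 1 fit of all 22 libraries, for dpr4 (0.056 and 0.0784) and dpr9 (0.0501 and 0.102). So was mushroom body against type II for dpr9 (0.0507 with limma and 0.0925 in 1 fit).

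dpr18, dpr3, dpr16 and kek5 were each called in 1 lineage comparison. dpr18 was at 10.2, 6.74 and 7.99 TPM in mushroom body and 0.645, 0.208 and 2.04 TPM in type II neuroblasts (3.07 ± 0.98 log2 units, SE; edgeR adjusted p = 0.0448), and its call was lost without any 1 mushroom body library or type II replicate 1 or 2, at adjusted p up to 0.156. dpr3 was at 6.81, 14.3 and 1.91 TPM in antennal lobe and 1.07, 0.173 and 0 TPM in type II neuroblasts (4.05 ± 1.20 log2 units, SE; edgeR adjusted p = 0.0291), and the call was lost without antennal lobe replicate 1 or 2 or type II replicate 2 or 3, at adjusted p up to 0.161. dpr16 was at 7.28, 4.49 and 4.97 TPM in antennal lobe and 1.04, 0.937 and 1.40 TPM in pooled neuroblasts (2.35 ± 0.76 log2 units, SE; edgeR adjusted p = 0.0359), and the call was lost without any 1 pooled library or antennal lobe replicate 1 or 3, at adjusted p up to 0.114. kek5 was at 58.4, 57.7 and 59.5 TPM in antennal lobe and 37.8, 13.7 and 24.8 TPM in pooled neuroblasts (1.24 ± 0.31 log2 units, SE; edgeR adjusted p = 0.0141, and 0.0507 without pooled replicate 3). With spike-in scaling the adjusted p was 0.175 for dpr18, 0.0771 for dpr3, 0.201 for dpr16 and 0.169 for kek5. In 1 fit of all 22 libraries it was 0.0699 for dpr3 and 0.0807 for dpr16.

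Neuron markers were also unequal between the neuroblast groups. The 8 neuron markers other than elav summed to 47.4 to 68.8 TPM in standard mushroom body, 30.9 to 43.7 TPM in antennal lobe, 6.87 to 27.4 TPM in type II and 12.6 to 18.0 TPM in pooled neuroblasts. elav itself averaged 59.0 TPM in mushroom body, 70.5 TPM in antennal lobe, 53.5 TPM in type II and 37.6 TPM in pooled neuroblasts. That was 26% of its neuronal mean in mushroom body, 31.1% in antennal lobe, 23.6% in type II and 16.6% in pooled neuroblasts. The sums without elav averaged 0.905% of the neuronal mean in mushroom body, 0.555% in antennal lobe, 0.24% in type II and 0.215% in pooled neuroblasts. The dpr sum was at 3.32% in mushroom body, 3.4% in antennal lobe, 1.53% in type II and 0.981% in pooled neuroblasts. The median member stood at 1.06% of its neuronal mean in mushroom body, 0.823% in antennal lobe, 0.3% in type II and 0.245% in pooled neuroblasts. The 4 markers of ganglion mother cells and young neurons summed to 166 to 216 TPM in mushroom body, 198 to 251 TPM in antennal lobe, 45.8 to 49.1 TPM in type II and 130 to 185 TPM in pooled neuroblasts. The part of such cells in the levels of dpr and kek genes in neuroblasts was not tested.

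No DIP or sidestep gene was called in any lineage comparison, with 2 of 11 and 4 of 8 tested. The share of all genes called in either direction is given in parentheses beside the pathway counts that follow. Of the 19 tested genes of the EGF receptor pathway, none was higher and 6 were lower in mushroom body than in antennal lobe (11.8%). Mushroom body had none higher and 4 lower than type II (10.4%), and antennal lobe had 3 higher and 1 lower than type II (11.4%). Against pooled neuroblasts, none was higher and 1 lower in mushroom body (14.4%). In antennal lobe 4 were higher and 1 lower (17.0%), and in type II 2 were higher and none lower (5.92%). pnt was the lower gene in antennal lobe against both type II and pooled neuroblasts. It was at 12.0, 10.0 and 18.7 TPM in mushroom body, 9.94, 14 and 4.88 TPM in antennal lobe, 253, 305 and 262 TPM in type II and 30.9, 50.4 and 49.7 TPM in pooled neuroblasts. Egfr was at 51.3, 40.7 and 39.0 TPM in antennal lobe and 31.1, 18.6 and 30.1 TPM in pooled neuroblasts (0.76 ± 0.24 log2 units, SE; edgeR adjusted p = 0.0337). The ligand gene spi was at 291, 238 and 260 TPM in mushroom body and 561, 479 and 522 TPM in antennal lobe. Mushroom body was 0.99 ± 0.16 log2 units lower (SE; edgeR adjusted p = 9.87e-05).

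The handling groups had no called member. Of 17 members tested (14 dpr and 3 kek genes), none was called for the 2 h wait or for the 3 washes against standard mushroom body neuroblasts by edgeR, DESeq2 or limma, beside 0.0228% and 0.833% of all 8766 genes tested. At an unadjusted p below 0.05 there were 4 for the wait (dpr, dpr12, dpr14 and kek5, all with changes below 0), beside 8.29% of all genes, and 0 for the washes, beside 8.19%, and spike-in scaling called 2 higher after the washes. kek1 was at 60.6, 66.7 and 52.9 TPM with the wait, 68.7, 52.4 and 69.6 TPM with the washes and 60.2, 58.3 and 50.0 TPM in the standard group, changes of 0.12 ± 0.16 and 0.18 ± 0.16 log2 units (SE; edgeR adjusted p = 0.896 and 0.86). It was among the 2 members called for the washes with spike-in scaling (edgeR adjusted p = 0.0124), where the median change of all genes was 0.77 log2 units. dpr17 was low in all 3 groups, at most 1.86 TPM with the wait, 0.732 TPM with the washes and 2.76 TPM in the standard group. The leading dpr gene was dpr18 with the wait, dpr9 with the washes and dpr4 in the standard group, and beat-IIIa led the beat genes in all 3.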

How the data were processed

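Larvae were synchronized and grown at 25 °C, brains were dissected 30 at a time and digested, and RNA of about 100 sorted cells was amplified before sequencing, per the labels' protocols. Bowtie2 2.1.0, STAR 2.4.0i, HTSeq 0.6.1p1 and cutadapt 1.7.1 and the builds dm3 and mm10 are named in the submitters' processing notes. The role of mm10 is not stated there, nor is the strand setting of the counting. The authors deposited whole-number read counts per gene and, separately, TPM values per gene. Counts were tested and TPM were used to describe levels. Reads assigned to no feature were 7.92% to 23.8% of counts and stayed out.

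The members and all lists were chosen with earlier results of these data known. edgeR 4.0.16 (R 4.3.3; TMM scaling, filterByExpr, robust quasi-likelihood test, Benjamini-Hochberg adjustment over all genes tested) was fitted in 3 fits: neurons, glia and pooled neuroblasts (7 libraries, 9855 genes), the 4 neuroblast lineage groups (12 libraries, 9249 genes) and the 3 mushroom body groups (9 libraries, 8766 genes). SE was the fitted change divided by the square root of F. A gene with 0 counts in a group was given a bound from 3 counts over the group, and one with 1 to 3 counts a ratio with an exact 95% interval of counting error. Named were up to 6 called members per comparison and direction by size of change among those at 5 CPM or more, besides dpr17, kek1 and the highest member of each family in each group by mean TPM, and up to 3 partner genes per list. Other genes named were chosen after their values were seen. Statements that libraries of groups do not overlap describe such named genes, and no share of all genes is given beside them. Alternatives were RLE scaling, no filter, spike-in scaling, DESeq2 1.42.0, limma 3.58.1 on log2(TPM + 1), the replicate number as a block, 1 fit of all 22 libraries, and leaving out each library. The scripts were tested on simulated data.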

Additional observations from a re-analysis of the deposited data

How the results depend on the processing

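The count of members called moved by over 1.5 times as follows. For glia against pooled neuroblasts (10) it was 5 with the replicate block, 17 with DESeq2, 6 with limma and 18 with all 22 libraries in 1 fit. For mushroom body against antennal lobe (2) it was 1 with spike-in scaling, limma or 1 fit. It was 4 for mushroom body against type II (7) in 1 fit, 3 for antennal lobe against type II (6) with spike-in scaling or 1 fit, 9 without a filter, 8 with the block and 10 with DESeq2 for mushroom body against pooled neuroblasts (5), 3 with spike-in scaling and 4 in 1 fit for antennal lobe against pooled neuroblasts (7), and 2 for the washes (0) with spike-in scaling. Leaving out single libraries gave 35 to 38 for neurons against pooled neuroblasts, 4 to 14 for glia against pooled neuroblasts, 16 to 27 for neurons against glia, 1 to 2 for mushroom body against antennal lobe, 2 to 7 for mushroom body and 3 to 7 for antennal lobe against type II, 4 to 6 for mushroom body, 4 to 8 for antennal lobe and 3 to 4 for type II against pooled neuroblasts, and 0 to 0 for both handling comparisons. The changes of kek2 and kek1 in glia reversed to -1.96 without glia replicate 1 (6.19 without glia replicate 2) and -0.83 with spike-in scaling. The cause was not tested.

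Deviations of same-numbered replicates from their group means had correlations of -0.0871 to 0.123 over all 3 fits. With 2 or 3 libraries in a group this cannot exclude a shared preparation. Whether the replicate number pairs libraries is therefore not known, and the main fits left it out. With the block, the calls in glia against pooled neuroblasts of dpr4 (adjusted p = 0.067), kek4 (0.0587) and kek2 (0.394) and that of dpr9 in mushroom body against type II (0.0535) were lost. Over all genes, calls for neurons against pooled neuroblasts (2438) were 1346 with the block, 4129 with spike-in scaling and 4687 in 1 fit. For glia against pooled neuroblasts (2029) they were 788, 5897 and 4731, and 3327 with DESeq2. For neurons against glia (1984) they were 1194, 3254 and 4618, and 3351 with DESeq2. Spike-in scaling and 1 fit gave 282 and 338 for mushroom body against antennal lobe (1095), 5279 and 324 for mushroom body and 3279 and 237 for antennal lobe against type II (958 and 1056), and 461 and 396 for antennal lobe and 1102 and 140 for type II against pooled neuroblasts (1574 and 548). Mushroom body against pooled neuroblasts (1330) had 493 in 1 fit. The wait (2) had 59 without a filter, 4 with spike-in scaling, 36 with DESeq2 and 0 with limma or 1 fit. The washes (73) had 134 without a filter, 40 with the block, 2134 with spike-in scaling, 136 with DESeq2, 0 with limma and 2 in 1 fit. With 2 libraries of neurons and of glia, and few counts in neuroblasts, differences between low members were often not detectable at this depth.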
